A study of Mus musculus with 6 samples.

Results

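Before a cell copies its DNA, the origin recognition complex (ORC) marks start points on the chromosomes, and the loaders CDC6 and CDT1 place the MCM2 to MCM7 helicase there. This step is called licensing. Kinases and firing factors then turn the loaded helicase into moving forks, where clamps, polymerases and chromatin assembly factors copy the DNA and repackage it. Many of these genes are transcribed from late G1 into S phase under E2F transcription factors, and dividing leukaemia cells are known to express them strongly. The 46 genes of this apparatus described here comprise 14 licensing factors, 8 firing factors, 19 fork and polymerase genes, 4 chromatin and histone-supply genes and the MCM paralog Mcm8. A gene was taken through the probe sets that the platform annotation pairs with its symbol alone, and the brightest by its mean over the 6 arrays stood for it. That rule gave a probe set for 45 of the 46 genes, among 22180 genes in all. Rfc4 was the exception, because its probe set is shared with Eif4a2. All 45 passed the filter on dim genes.

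The arrays measured a mouse B-lineage acute lymphoblastic leukaemia driven by the BCR-ABL oncogene, which encodes a constitutively active tyrosine kinase. Of the 6 samples, 3 received dihydroartemisinin (DHA, to which artemisinin antimalarials are converted in the body) at 312 nM and 3 the vehicle dimethyl sulphoxide (DMSO), for 4 h in both groups per the treatment protocol. The growth protocol names lines with p185 or p185 T315I, a mutated form of the oncogene, that are Arf-/- or p53-/-. The sources used here do not give the line that was profiled, so loss of Arf or p53 may be common to both groups. The labels name no separate cultures, so p-values measure only how far these samples spread, and that spread may be technical. Values are log2 intensities of Affymetrix arrays, so a difference of 1 is a doubling.

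Array medians lay between 5.25 and 5.31, and correlations between arrays between 0.9925 and 0.9947. Of 11 B-cell precursor markers, 9 had a probe set of their own and all 9 lay above the filter, led by the surrogate light chain gene Igll1 at 12.98. Its partner Vpreb1 lay close to the filter, at 4.78. Of other cell types' markers with a probe set, those above the filter were 2 of 7 T and NK cell markers, 5 of 8 myeloid, 2 of 3 erythroid and megakaryocyte and 5 of 6 stromal markers, the brightest being Col1a1 at 6.30. No marker of any list was called changed. Each title ends in a number code that begins with 2 for DMSO replicates 1 and 2 and DHA replicate 1, and with 4 for the other arrays. DMSO replicate 3 and DHA replicate 2 share the same code. The labels do not say what the codes mean, and the extraction protocol mentions 2 and 4 h.

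Promoter sequences are shown first, because E2F sites are the feature through which replication genes are best known to be expressed together. RefSeq promoter windows (GRCm38.p6, 250 bases before the annotated start of transcription and 50 from it onwards) were found for 38 of the 46 genes. They were searched on both strands for an E2F word (TTTGGCGC, TTTCCCGC, TTTGCCGC or TTTCGCGC), for the CHR element TTTGAA, known from genes of late cell cycle phases, and for the CCAAT box. At least 1 E2F word was present in 16 of 38 member genes (42.1%), against 2.61% of the 27025 genes with a promoter window. By role it was found in 8 of 12 licensing, 1 of 5 firing, 5 of 16 fork and polymerase and 1 of 4 chromatin genes, and in Mcm8. CCAAT was present in 63.2% of the members and 41.1% of all genes, and TTTGAA in 18.4% and 20.2%. By role TTTGAA was unevenly spread, in 1 of 12 licensing, 4 of 5 firing, 2 of 16 fork and polymerase and 0 of 4 chromatin genes. These are matches of letters, not measured binding.

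The 8 licensing genes with an E2F word are shown as windows of 30 bases on the gene's strand, with the word in capitals. Words read as GCGGGAAA, GCGCGAAA or GCGCCAAA are the same words on the other strand. In Mcm5 and Mcm6 a word on each strand overlaps with the other, so the capitals run over 12 bases.
Cdc6, chr11:98908002-98908031 (+): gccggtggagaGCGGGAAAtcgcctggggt
Cdt1, chr8:122568035-122568064 (+): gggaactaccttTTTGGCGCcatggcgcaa
Mcm3, chr1:20820275-20820304 (-): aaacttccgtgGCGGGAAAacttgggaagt
Mcm5, chr8:75109347-75109376 (+): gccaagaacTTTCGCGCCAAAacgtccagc
Mcm6, chr1:128359795-128359824 (-): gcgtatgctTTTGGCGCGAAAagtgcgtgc
Mcm7, chr5:138172030-138172059 (-): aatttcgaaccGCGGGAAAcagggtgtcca
Orc1, chr4:108579416-108579445 (+): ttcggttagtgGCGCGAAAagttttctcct
Orc3, chr4:34614965-34614994 (-): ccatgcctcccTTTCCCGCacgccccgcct

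In Cdt1 the word starts 32 bases after the start of transcription, and the 250 bases before it hold none of the 3 motifs. The Orc1 word starts 27 bases before the start and that of Cdc6 138 bases before it. Mcm3, Mcm6 and Mcm7 each hold a further word outside the window shown. The 2 ORC genes with the largest differences after DHA, Orc5 and Orc6, hold no E2F word, and their 250 upstream bases are shown for contrast, with the CCAAT box of Orc6 (read as ATTGG) in capitals.
Orc5, chr5:22550339-22550588 (-): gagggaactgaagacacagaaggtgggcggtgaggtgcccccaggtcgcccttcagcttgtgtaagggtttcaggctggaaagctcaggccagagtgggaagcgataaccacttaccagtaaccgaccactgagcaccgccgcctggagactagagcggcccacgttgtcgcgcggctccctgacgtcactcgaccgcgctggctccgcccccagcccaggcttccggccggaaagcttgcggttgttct
Orc6, chr8:85299382-85299631 (+): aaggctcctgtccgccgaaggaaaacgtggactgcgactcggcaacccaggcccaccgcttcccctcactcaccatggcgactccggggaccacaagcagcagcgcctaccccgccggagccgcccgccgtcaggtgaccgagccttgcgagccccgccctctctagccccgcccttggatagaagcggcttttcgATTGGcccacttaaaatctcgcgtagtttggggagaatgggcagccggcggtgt

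The comparison of DHA with DMSO asked how the replication genes stood 4 h after exposure. No member was called changed. Of the 45 log2 fold changes, 31 lay within 0.1 of 0 (68.9%, beside 66.1% of all genes tested). The largest differences in size were those of the licensing genes Cdt1, Orc5 and Orc6, higher on each DHA array, followed by the fork gene Rpa3, lower on each, and by Orc2, higher on each, while the 6 genes of the MCM2 to MCM7 helicase overlapped between the groups. At a limma adjusted p at or under 0.05 (Benjamini-Hochberg over 15526 genes), 0 of 45 members were called, against 0.0902% of all genes (14 of 15526), 0.0837% higher and 0.00644% lower. At an unadjusted p under 0.05 limma gave 5 members higher (Cdt1, Orc5, Orc6, Orc2 and Mcm8) and 1 lower (Rpa3), where 5.94% of all genes were higher and 6.08% lower. The median log2 fold change of the 45 was 0.028, with 30 higher and 15 lower, beside 0.0027 over all genes, of which 51.2% were higher. The median of the 45 was 0.010 without DHA replicate 3, 0.014 without DMSO replicate 1 and 0.051 without DHA replicate 2. In a bulk sample, a smaller share of cells in a phase of the cycle and less RNA per cell cannot be told apart.

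**Figure D1:**
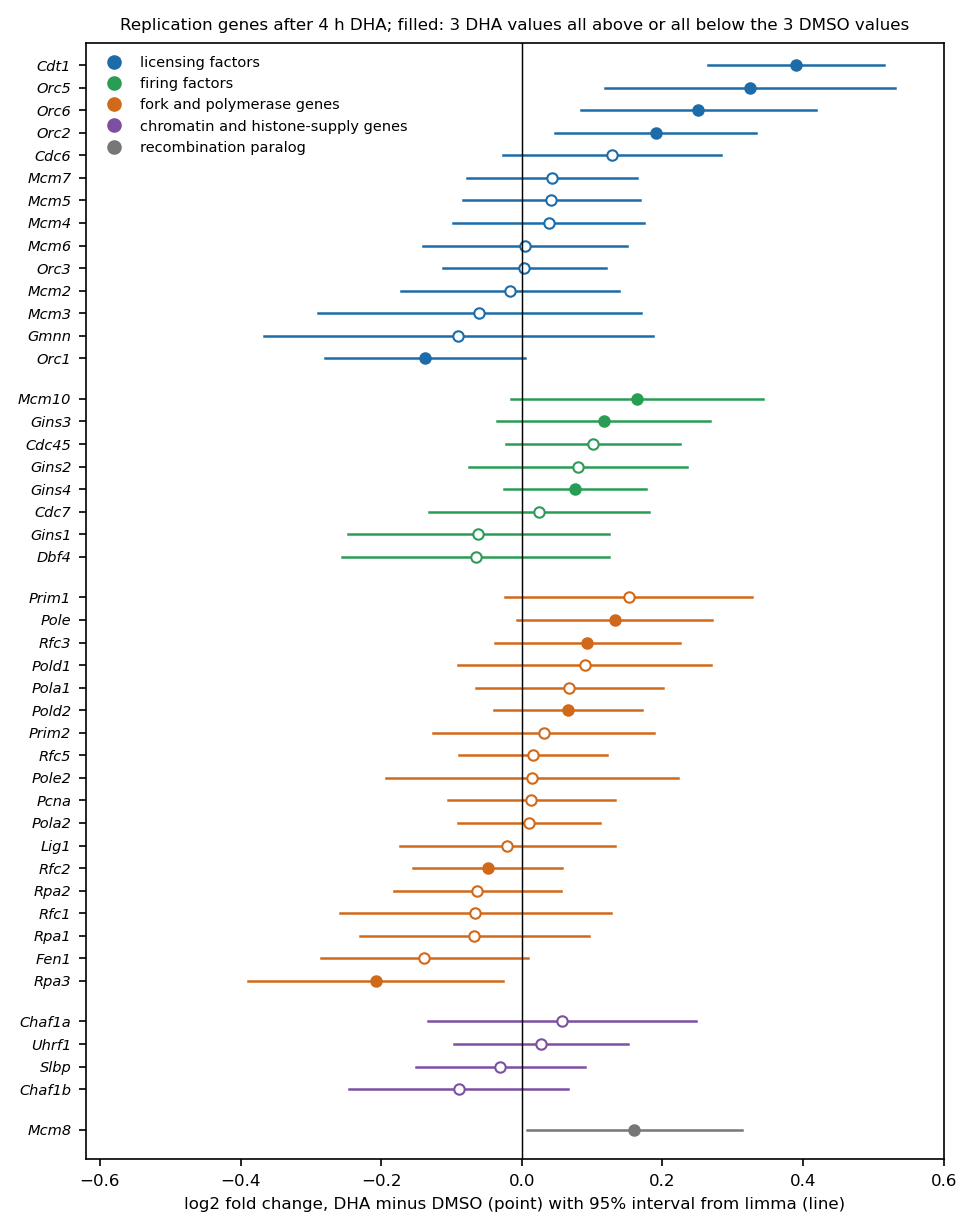
Log2 fold change of each of the 45 members (x axis, DHA minus DMSO; point, with the 95% interval from limma as a line), ordered within role groups. Filled points are the 14 members whose groups are separate. Cdt1 lies furthest to the right at 0.39 and Rpa3 furthest to the left at -0.21, and the lines of all 6 MCM2 to MCM7 genes cross 0.

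Groups are called separate here where the 3 DHA values all lay above or all below the 3 DMSO values. They were separate in 14 of 45 members (31.1%), 11 higher and 3 lower. Over all genes the groups were separate in 15.8%, 7.64% higher and 8.19% lower. The count depended on how the arrays were scaled. After each array was centred on its median, the groups were separate in 5 members (11.1%) beside 15.1% of all genes, namely Cdt1, Orc5, Orc6, Orc1 and Fen1. Under quantile normalization they were separate in 13 members (28.9%) beside 17.0% of all genes, Cdt1, Orc5 and Orc6 among them. Leaving out arrays, filters, moderation, array weights and title-code terms cannot make separate groups overlap. The separation of a member under those settings is therefore no further support.

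The ORC subunits recognise origins and serve as the platform for loading. Orc5 measured 8.55, 8.57 and 8.51 on the DMSO arrays and 9.06, 8.73 and 8.81 on the DHA arrays. The DHA values were all higher, with a gap of 0.17 between the groups, and DHA replicate 1 stood furthest out. The means differed by 0.32 (SE 0.086, 95% interval 0.12 to 0.53; limma adjusted p = 0.236), and without DHA replicate 1 it was 0.23. Orc6, the subunit least related to the others, measured 9.60, 9.71 and 9.72 with DMSO and 10.03, 9.81 and 9.95 with DHA. Its groups did not overlap either, and the log2 fold change was 0.25 (SE 0.070; limma adjusted p = 0.250).

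Orc2, a core subunit, measured 9.01, 9.15 and 8.98 with DMSO and 9.22, 9.21 and 9.28 with DHA, a difference of 0.19 (SE 0.060; limma adjusted p = 0.298). The gap of 0.055 between its groups closed after median centring. Orc1, the ATPase subunit whose amount is known to vary through the cell cycle, lay the other way. It measured 7.58, 7.74 and 7.62 with DMSO and 7.49, 7.47 and 7.58 with DHA. All DHA values were lower, by a gap of only 0.0080, and the log2 fold change was -0.14 (SE 0.060; limma adjusted p = 0.430). Under quantile normalization the Orc1 groups overlapped. Orc3 did not share the higher values of its partner subunits, with a log2 fold change of 0.0038 (95% interval -0.11 to 0.12). The 5 ORC genes had a median of 0.19, with 3 separate and higher and 1 separate and lower. Over all genes 7.64% were separate and higher and 8.19% separate and lower. The remaining subunit gene, Orc4, is outside the 46 and was added here after its values were seen. Its groups overlapped, with a difference of 0.086 (SE 0.066; limma adjusted p = 0.652), and the median of all 6 ORC genes was 0.14.

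CDT1 brings the helicase to ORC with CDC6, is destroyed in S phase, and is held inactive by geminin, the product of Gmnn. Cdt1 had the largest difference of the 45 members. It measured 9.91, 9.85 and 9.90 with DMSO and 10.33, 10.20 and 10.29 with DHA. The lowest DHA value lay 0.29 above the highest DMSO value, while the values within a group spread little (9.88 ± 0.029 and 10.27 ± 0.070, SD, n = 3 per group). This was a 1.31-fold difference (log2 fold change 0.39, SE 0.053, 95% interval 0.27 to 0.52), which missed the threshold at a limma adjusted p = 0.0660. The exact permutation p of the 3 against 3 values was 0.1, the smallest this design allows. Cdt1 passed in 3 of 17 other settings, which were the 50th percentile filter, quantile normalization and trend with robust moderation (limma adjusted p = 0.0353, 0.0380 and 0.0351), and the adjusted p ranged from 0.0351 to 0.341 over the 17.

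Cdc6 measured 9.66, 9.85 and 9.64 with DMSO and 9.86, 9.83 and 9.85 with DHA. DMSO replicate 2 reached into the narrow DHA range, so the groups overlapped (log2 fold change 0.13, SE 0.065; limma adjusted p = 0.496). Gmnn measured 7.88, 8.17 and 7.76 with DMSO and 7.90, 7.71 and 7.93 with DHA. Its DMSO values spread over more than the difference between the means, and the log2 fold change was -0.090 (95% interval -0.37 to 0.19; limma adjusted p = 0.796). The inhibitor of CDT1 therefore showed no difference beyond the spread of the arrays, with an interval wide enough to hold changes of either sign.

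**Figure D2:**
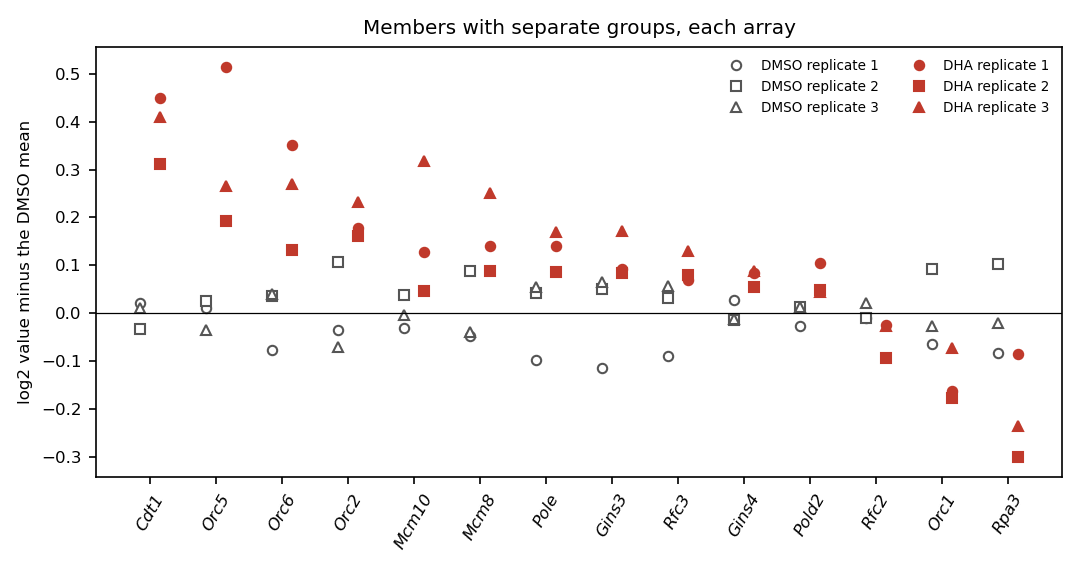
Each of the 6 arrays for the 14 members with separate groups (x axis), as the log2 value minus the DMSO mean of that gene (y axis). Open grey symbols are DMSO and filled red symbols DHA, with a symbol shape for each replicate number. The space between grey and red is widest for Cdt1 and Orc5 and under 0.02 for Mcm8, Mcm10, Rpa3, Orc1, Rfc2, Rfc3 and Gins3.

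The MCM2 to MCM7 proteins form the ring that is loaded at origins and later unwinds DNA. Mcm2 measured 10.94, 11.05 and 10.92 with DMSO and 10.97, 10.85 and 11.04 with DHA. For Mcm3 the values were 10.31, 10.67 and 10.44 with DMSO and 10.44, 10.33 and 10.47 with DHA. Mcm4 measured 11.34, 11.46 and 11.37 in the vehicle group and 11.45, 11.36 and 11.49 in the DHA group. The DMSO and DHA ranges overlapped in each of these genes. Mcm5 values were 11.54, 11.53 and 11.63 with DMSO and 11.58, 11.57 and 11.67 with DHA. On the DMSO arrays Mcm6 measured 10.81, 10.94 and 10.87, and on the DHA arrays 10.87, 10.80 and 10.96. Mcm7 measured 11.51, 11.61 and 11.63 with DMSO and 11.65, 11.61 and 11.61 with DHA. Groups overlapped in all 6 genes.

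The log2 fold changes of the 6 helicase genes ran from -0.060 for Mcm3 to 0.043 for Mcm7, with a median of 0.021, and the smallest limma adjusted p was 0.776. Their 95% intervals lay between -0.29 and 0.17. Excluding Mcm3, the widest interval was that of Mcm2, from -0.17 to 0.14. The 4 helicase genes with an E2F word in the promoter window, Mcm3, Mcm5, Mcm6 and Mcm7, had differences of -0.060, 0.042, 0.0042 and 0.043, whereas that of Cdt1, which also holds one, was 0.39. Over the members with a promoter window, the median was 0.042 for 16 with an E2F word and 0.013 for 21 tested without.

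Mcm8 belongs to the MCM family but acts in recombination repair. It measured 8.05, 8.19 and 8.06 with DMSO and 8.24, 8.19 and 8.35 with DHA. The groups were separate by 0.0017 only, the means differed by 0.16 (SE 0.064; limma adjusted p = 0.394), and the groups overlapped after median centring and after quantile normalization.

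Firing factors convert the loaded helicase into a working one. The kinase CDC7 with its activator DBF4 starts the process, CDC45 and the 4 GINS subunits join the helicase, and MCM10 helps to set it in motion. Their median log2 fold change was 0.078, with 6 of 8 higher (75%, beside 51.2% of all genes). The groups of 3 were separate and higher (37.5%, beside 7.64% of all genes). None of these 3 stayed separate after median centring, and all 3 did under quantile normalization. Mcm10 measured 9.51, 9.58 and 9.54 with DMSO and 9.67, 9.59 and 9.86 with DHA. DHA replicate 3 was the high array. The means differed by 0.16 (SE 0.075; limma adjusted p = 0.457), and by 0.087 without that array. Gins3 measured 8.75, 8.91 and 8.92 with DMSO and 8.95, 8.94 and 9.03 with DHA, a difference of 0.12 (SE 0.064). DMSO replicate 1 was the low array here, and without it the difference was 0.059. Gins4 values were 10.51, 10.47 and 10.47 with DMSO and 10.57, 10.54 and 10.57 with DHA. They were tightly grouped and differed by 0.076 (SE 0.043; limma adjusted p = 0.531).

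Groups overlapped for the other 5 firing factors. Log2 fold changes were 0.10 for Cdc45 and 0.080 for Gins2, and 0.025 for Cdc7, -0.062 for Gins1 and -0.066 for Dbf4. Cdc7 and its activator had differences of opposite sign, and both 95% intervals held 0 (-0.13 to 0.18 and -0.26 to 0.12).

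At the fork, the sliding clamp PCNA holds polymerases on DNA, the RFC complex loads the clamp, and RPA coats single-stranded DNA. Pcna measured 12.16, 12.18 and 12.11 with DMSO and 12.21, 12.10 and 12.18 with DHA. Its groups overlapped throughout, and the log2 fold change was 0.013 (95% interval -0.11 to 0.13; limma adjusted p = 0.939). Of the clamp loader genes, Rfc3 measured 8.99, 9.11 and 9.13 with DMSO and 9.15, 9.16 and 9.21 with DHA, while Rfc2 measured 9.40, 9.40 and 9.43 with DMSO and 9.38, 9.31 and 9.38 with DHA. Both were separate, by 0.012 and 0.014 and in opposite directions, with log2 fold changes of 0.093 and -0.049. Rfc1 (-0.066) and Rfc5 (0.016) overlapped.

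Rpa3, the smallest RPA subunit, had the lowest log2 fold change of the 45 members. Its brighter probe set (17548957) measured 10.55, 10.74 and 10.61 with DMSO and 10.55, 10.33 and 10.40 with DHA. The highest DHA value lay 0.0031 below the lowest DMSO value, and the log2 fold change was -0.21 (SE 0.076; limma adjusted p = 0.354). A dimmer probe set of Rpa3 (17464776) measured 8.04, 8.03 and 8.02 with DMSO and 7.84, 7.89 and 7.92 with DHA. Its groups were also separate and lower with DHA, with a difference of -0.15. The other RPA genes overlapped between the groups, with log2 fold changes of -0.068 for Rpa1 and -0.063 for Rpa2.

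DNA polymerase alpha with primase makes the first primers, polymerase epsilon extends the leading strand and polymerase delta the lagging strand. The 8 members that encode subunits of these enzymes all had a higher mean with DHA, by 0.0099 to 0.15, and none was called. Pole, the catalytic subunit of polymerase epsilon, measured 10.22, 10.36 and 10.37 with DMSO and 10.46, 10.40 and 10.49 with DHA. The DHA values were all higher, by a gap of 0.031, and the log2 fold change was 0.13 (SE 0.058; limma adjusted p = 0.438). Pold2, the second subunit of polymerase delta, measured 10.89, 10.93 and 10.93 with DMSO and 11.02, 10.96 and 10.96 with DHA, a difference of 0.065 (SE 0.044). Prim1, the catalytic primase subunit, had the largest log2 fold change of the 8 (0.15, SE 0.074), but its DHA replicate 3 equalled DMSO replicate 2 at 9.13. Without DHA replicate 1 it was 0.078, below Pole at 0.13 and Pold1 at 0.12. The remaining values were 0.089 for Pold1, 0.067 for Pola1, 0.031 for Prim2, 0.015 for Pole2 and 0.0099 for Pola2. Other subunit genes of polymerases delta and epsilon, outside the member list, did not all lie higher. Pole3 differed by -0.082, against 0.039 for Pold3, 0.19 for Pold4 and 0.018 for Pole4. Groups overlapped for each of these further genes.

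FEN1 trims the flaps between Okazaki fragments and LIG1 seals them. The brighter Fen1 probe set measured 8.71, 8.80 and 8.68 with DMSO and 8.59, 8.68 and 8.51 with DHA. DHA replicate 2 equalled DMSO replicate 3, so the groups touched, and the log2 fold change was -0.14 (SE 0.062; limma adjusted p = 0.439). Lig1 overlapped, with -0.020. The 18 tested fork and polymerase genes had a median of 0.014. Of these, 3 were separate and higher (16.7%, beside 7.64% of all genes) and 2 separate and lower (11.1%, beside 8.19%). After median centring none of these 5 was separate, whereas Fen1 was. Under quantile normalization only Rfc3 of the 5 overlapped.

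CAF-1, made by Chaf1a and Chaf1b, deposits histones behind the fork, UHRF1 guides maintenance methylation of the new strand, and SLBP binds the stem-loop of histone messenger RNAs. Groups overlapped for all 4 genes. Log2 fold changes were 0.057 for Chaf1a, 0.028 for Uhrf1, -0.030 for Slbp and -0.089 for Chaf1b, with a median of -0.0014.

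Licensing factors were set against fork and polymerase genes. The medians were 0.040 for 14 licensing and 0.014 for 18 fork genes, a difference of 0.026. With 1 array left out, the licensing median ran from 0.0100 (without DMSO replicate 1) to 0.055 (without DHA replicate 2) and the fork median from -0.0061 (without DHA replicate 1) to 0.025 (without DMSO replicate 2). The difference was not held by all arrays: without DMSO replicate 1 it was -0.0025 and without DHA replicate 3 it was -0.0018. Levels were also followed array by array, as the mean deviation of a group's probe sets from their 6-array means. For licensing factors it was -0.090, 0.031 and -0.060 with DMSO and 0.069, -0.029 and 0.078 with DHA. DMSO replicate 2 lay above DHA replicate 2, so the groups overlapped. Fork and polymerase genes gave -0.039, 0.049 and -0.016 with DMSO and 0.029, -0.031 and 0.0078 with DHA, again with overlap.

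The subtraction of these deviations within each array, licensing minus fork, gave -0.051, -0.018 and -0.044 with DMSO and 0.040, 0.0023 and 0.071 with DHA. These values did not overlap, although the gap was small. The helicase genes, 6 of the 14 licensing factors, gave group means of -0.0042 ± 0.067 and 0.0042 ± 0.060 (SD, n = 3 per group). The ORC genes gave -0.11, -0.013 and -0.071 with DMSO and 0.11, -0.0034 and 0.084 with DHA. Roles and subcomplexes were formed with results of these data in view, and no test was made of their differences.

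**Figure D3:**
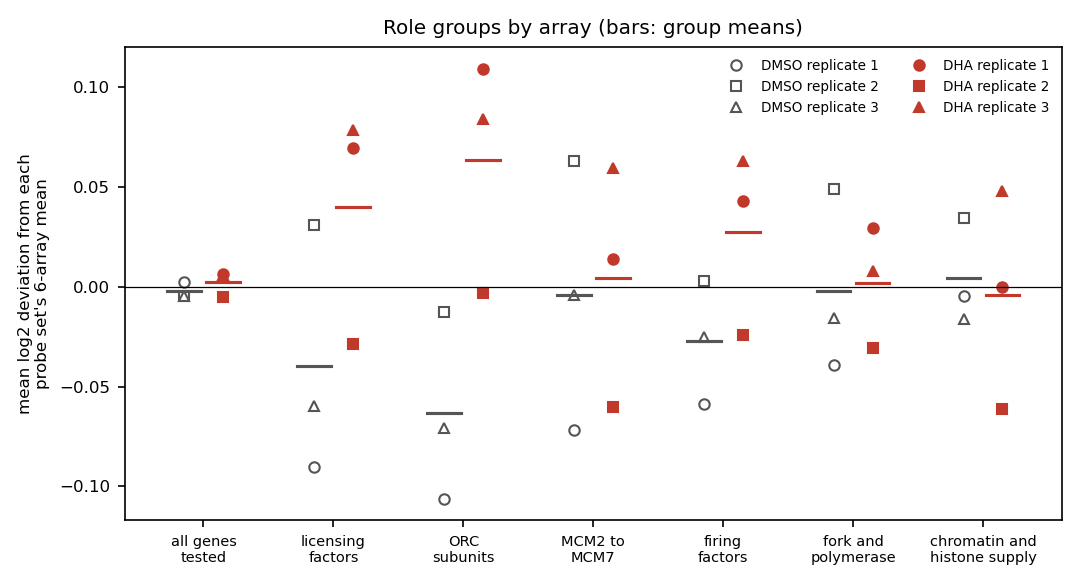
Mean log2 deviation of the genes of a role group from each probe set's 6-array mean (y axis), for each of 3 DMSO (open grey) and 3 DHA (filled red) arrays, with horizontal bars at the group means. All genes tested stay within 0.0063 of 0. The ORC subunits lie apart by array group only narrowly, between DMSO replicate 2 at -0.013 and DHA replicate 2 at -0.0034. The helicase and fork genes overlap, with DMSO replicate 2 high and DHA replicate 2 low in most role groups.

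Replication genes moved together from array to array within a group. DMSO replicate 2 was the highest DMSO array in 29 of 45 members (64.4%), against 34.5% of all genes tested. DHA replicate 2 was the lowest DHA array in 34 of 45 (75.6%), against 38.0% of all genes. For Mcm3, Gmnn, Dbf4 and Rfc1, among others, DMSO replicate 2 lay above each of the other 5 arrays. The part of this shared movement in the results was not tested. It bears on members whose DMSO replicate 2 value reached into the DHA range, such as Cdc6. Without DMSO replicate 2, the log2 fold change of Cdc6 was 0.19, and those of Mcm2, Mcm3, Gmnn, Dbf4, Rfc1 and Lig1 became positive at 0.0042 to 0.037.

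Differences were also taken within title codes. Among arrays whose code begins with 2 (1 DHA and 2 DMSO), Cdt1 differed by 0.46, and among those beginning with 4 (2 DHA and 1 DMSO) by 0.35. Orc5 differed by 0.50 and 0.27, Orc6 by 0.37 and 0.16, and Orc2 by 0.14 and 0.27. Between the pair of arrays that share a code, the difference was 0.30 for Cdt1, 0.23 for Orc5 and Orc2 and 0.093 for Orc6. With a term for the first digit of the code, the log2 fold changes were 0.40 for Cdt1, 0.38 for Orc5, 0.27 for Orc6 and 0.21 for Orc2, and none was called (limma adjusted p = 0.105, 0.154, 0.280 and 0.321).

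**Figure D4:**
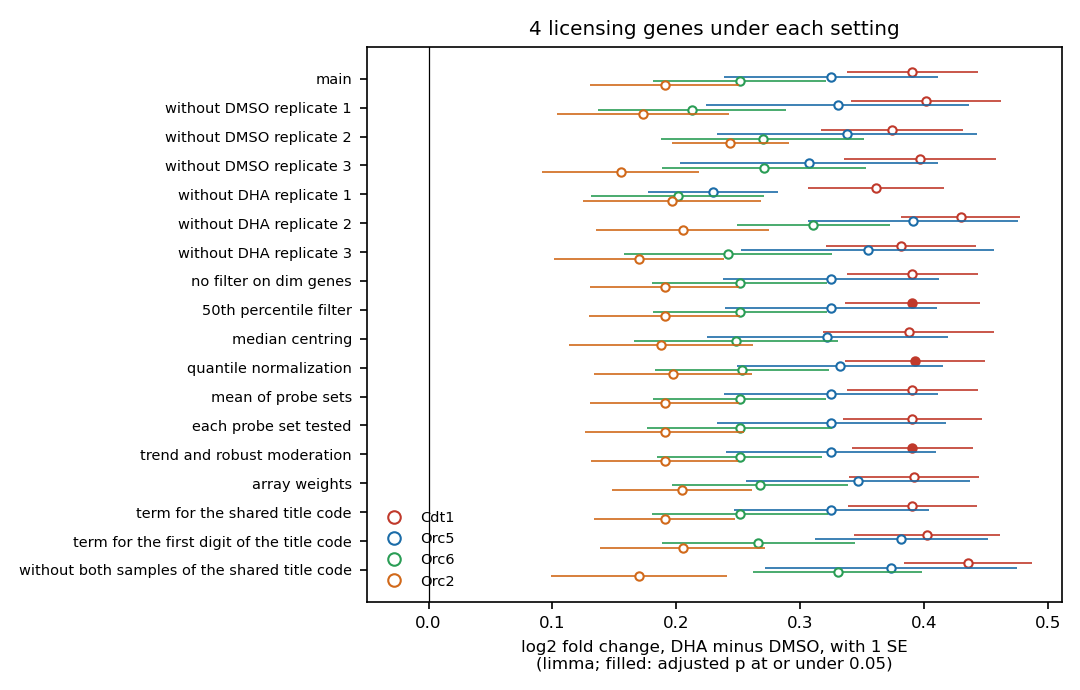
Log2 fold change (x axis, DHA minus DMSO, with 1 SE from limma as a line) of Cdt1, Orc5, Orc6 and Orc2 in the main analysis and under each of 17 other settings (y axis). Points are filled where the limma adjusted p was at or under 0.05, which is the case for Cdt1 under 3 settings, and Cdt1 stays between 0.36 and 0.44 throughout.

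Other replication genes outside the 46 were read from lists of initiation, fork and chromatin genes. Of 17 further initiation genes, 0 were called by limma, and the median log2 fold change was 0.079. At an unadjusted p under 0.05 by limma, 5 were higher (29.4%) and 1 lower, where 5.94% of all genes were higher and 6.08% lower. Mtbp, whose product works with treslin in origin firing, measured 8.81, 9.001 and 8.89 with DMSO and 9.44, 9.30 and 9.28 with DHA. The DHA arrays were clearly set apart, with a difference of 0.44 (SE 0.070; limma adjusted p = 0.0945). Ticrr, which encodes treslin, differed by 0.29 (SE 0.071) and Fbxo5, which encodes an inhibitor of the anaphase-promoting complex that helps to keep geminin, by 0.24 (SE 0.047), both with separate groups. Skp2, which encodes a ubiquitin ligase subunit that targets CDT1 among other proteins, lay lower by -0.26 (SE 0.071), with separate groups. The limma adjusted p was 0.200 for Ticrr, 0.137 for Fbxo5 and 0.242 for Skp2. In all, 4 genes of this list (23.5%) were separate and higher and 2 (11.8%) separate and lower, beside 7.64% and 8.19% of all genes. Dtl (0.22, SE 0.084) was among the higher and Cul4a (-0.16, SE 0.079) among the lower. Turnover of CDT1 was not measured.

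Of 22 further fork genes with a probe set, limma called 0, with a median of 0.031. At an unadjusted p under 0.05 limma gave 2 higher (9.09%) and 1 lower, near the 5.94% and 6.08% of all genes. Atad5, whose product unloads PCNA, measured 8.89, 9.13 and 9.04 with DMSO and 9.29, 9.26 and 9.31 with DHA (log2 fold change 0.27, SE 0.068; limma adjusted p = 0.223). Chek1, a checkpoint kinase of stalled forks, differed by 0.15, the nuclease gene Dna2 by 0.076 and Pclaf, a PCNA-binding factor, by -0.11, each with separate groups. Of 9 chromatin genes, 0 were called by limma and 1 was higher at an unadjusted p under 0.05 (11.1%, beside 5.94% of all genes). This was Casp8ap2, which acts in histone gene expression and whose groups were separate, with a difference of 0.24 (SE 0.084; limma adjusted p = 0.336).

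For orientation, 10 genes of nucleotide supply had a median of -0.033, with Rrm2b (0.77) and Tyms (0.24) giving the smallest p. In each direction 2 of them were separate (20%, beside 7.64% of all genes higher and 8.19% lower). Among 23 genes of mitosis, 12 were separate and all 12 lower, where 8.19% of all genes were separate and lower, with a median of -0.11, led by Kif2c (-0.26) and Prc1 (-0.46). Limma called 0 genes in either list. At an unadjusted p under 0.05 there were 3 nucleotide supply genes, all higher, and 11 mitotic genes, all lower. Over all genes 5.94% were higher and 6.08% lower at that limit. The median was 0.028 for the 45 members, and the difference between these lists was not tested.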

How the data were processed

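RNA from 3 DMSO and 3 DHA samples was measured on Affymetrix arrays. Each sample's deposited table column held log2 intensities by probe set, for which RMA and Partek version 6.6 are named per the submitters' processing notes, with no settings. RMA, as usually run, scales arrays to each other and compresses changes of dim probe sets. Of 41345 probe sets, 23521 were paired with 1 symbol, 1814 with several and 16010 were not named, and symbols were updated through RefSeq (GRCm38.p6). No source used here names the build of the platform annotation. The brightest probe set stood for each of 22180 genes, and 15526 with a mean at or above the 30th percentile (4.52) were tested in R (version 4.3.3) by limma (version 3.58.1; two-sided, default moderation, Benjamini-Hochberg over all 15526, called at or under 0.05). The number of arrays, 3 per group, limits the precision. Replicate numbers follow accession order and pair nothing. Members and lists were chosen with earlier results of these data known. By the rule for naming, members with separate groups, Mcm2 to Mcm7, Orc1, Cdc6, Cdt1, Gmnn and Pcna are given array by array. Up to 4 genes with separate groups and the smallest p are named from each list of other replication genes, and up to 2 with the smallest p from each comparison list. Orc4, Dtl, Cul4a, Pold3, Pold4, Pole3 and Pole4 are named beyond this rule. Simulated data for DHA against DMSO were used to check the fit, with 15526 genes, of which 200 were changed: 90.8% of genes changed by 0.5 (log2) were recovered and 6.05% of calls were false. The simulated noise was normal and independent between genes, without shared movement of arrays, and most planted changes were of 1 or 2. These shares therefore check the code and do not give the recovery to be had in the real arrays. Alternatives were leaving out arrays, other filters, scaling, probe set choice, moderation, array weights and title-code terms.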

Additional observations from a re-analysis of the deposited data

How the results depend on the processing

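No paired analysis was possible because DMSO and DHA shared only 1 title number, and accession order gave the replicate numbers. The count of called members, 0, was 1 (Cdt1) with the 50th percentile filter, quantile normalization or trend and robust moderation, where calls over all genes went from 14 (0.0902%) to 62 (0.559%), 63 (0.406%) and 62 (0.399%). With the adjusted threshold raised to 0.1 it was also 1, for which no count over all genes is given. At an unadjusted p under 0.05 by limma it was 6, where 5.94% of all genes were higher and 6.08% lower. The count of called members was 0 on leaving out any array, with 24 genes called in all without DHA replicate 2 and 0 without any other array. The count of separate members, 14, was 5 after median centring and 22 (48.9%, beside 37.4% of all genes) when the 2 arrays with the same title code were left out, where fewer arrays are compared. Leaving out those arrays also moved the median of firing factors from 0.078 to 0.12 and licensing minus fork from 0.026 to 0.064. On leaving out 1 array, licensing minus fork ranged from -0.0025 to 0.045 and the nucleotide supply median from -0.053 to 0.0076. The cause was not tested. Of 765 member values under alternatives, 734 kept sign and call, 28 changed sign (in 15 members) and 3 were those of Cdt1, at 0.39 each. Many of the 734 kept their sign by design. Other filters, moderation, testing each probe set and the shared-code term leave a member's log2 fold change as it was, so only its call could change. With 1 array left out, values that changed sign ran from -0.058 to 0.034 for Mcm2, -0.14 to 0.037 for Mcm3, -0.038 to 0.043 for Mcm6, -0.021 to 0.032 for Orc3, -0.18 to 0.027 for Gmnn, -0.033 to 0.072 for Cdc7, -0.13 to 0.0065 for Dbf4, -0.0091 to 0.044 for Pcna, -0.12 to 0.0042 for Rfc1, -0.0082 to 0.086 for Prim2, -0.061 to 0.085 for Pole2, -0.054 to 0.027 for Lig1, -0.027 to 0.11 for Chaf1a and -0.0071 to 0.059 for Uhrf1. With the first-digit term the sign changed for Mcm2 (0.00058), Orc3 (-0.016), Cdc7 (-0.014) and Lig1 (0.0087), without both shared-code samples for Mcm2 (0.0084) and Cdc7 (-0.0046), and with the mean of probe sets for Rpa1 (0.00087).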

Other observations

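Some probe sets name a member together with another gene. They stood for no gene, and could enter only the setting in which each probe set was tested. The probe set shared by Rfc4, a clamp loader subunit, and Eif4a2 measured 11.04, 11.19 and 11.05 with DMSO and 11.23, 11.10 and 11.09 with DHA, so its groups overlapped. Mcm7 hosts microRNA genes, and the probe set named for Mir25 and Mcm7 measured 7.73, 7.44 and 7.99 with DMSO and 7.77, 7.96 and 8.11 with DHA. Its difference of 0.23 lay within overlapping groups, beside 0.043 for the probe set of Mcm7 alone. The probe set named for Mir93 and Mcm7 differed by 0.051.

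Second probe sets of other members were dimmer. That of Fen1 differed by -0.11, that of Pole by 0.14 and that of Rpa1 by 0.070, against -0.14, 0.13 and -0.068 for the brighter ones, and the groups overlapped in all 3 dimmer sets. The means of the dimmer sets of Pole and Rpa1 lay under the filter of 4.52, so only that of Fen1 would have been tested. Exactly equal values on at least 2 arrays occurred in 14 of 45 members (31.1%) and in 35.2% of all genes tested, and in 10 members the equal values stood in different groups, as for Prim1 and Fen1.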
